A study of Mus musculus with 6 samples.

Results

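The proteasome genes of mouse pancreatic islets were described in 3 libraries from mice whose beta cells were deleted for Neurod1 and in 3 control libraries. The genes were taken by symbol: every row whose name starts with Psma to Psmg followed by a number, without the immunoproteasome genes Psmb8 and Psmb9. This gave 47 of the 23284 genes in the files. Of these, 17 encode the alpha and beta subunits of the core particle, 9 the base of the regulatory particle, 8 its lid, 4 the alternative activators, and 8 assembly chaperones or an inhibitor. The last, Psmc3ip, matched by name alone: it is known for a part in meiotic recombination and is no proteasome subunit. After a filter on low counts 45 of the 47 were tested. Psma8, the alpha subunit of the testis, and Psmb11, the beta subunit of the thymus, were at or below 0.892 and 0.321 CPM (counts per 1e+06 counts of the library, scaled by TMM factors) in every library and were not tested.

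The knockout group carried Neurod1-floxed/floxed alleles and Rip-Cre+, a Cre recombinase under a rat insulin promoter, which is active in beta cells. The control group carried Neurod1-floxed/floxed alleles without Cre, so Cre itself and the deletion cannot be told apart as sources of a difference. All mice were 12 weeks old, and the labels write the strain as C56BL/J. Islets were purified after collagenase digestion, and their total RNA was sequenced in bulk. Whether the libraries stem from different animals is not said in the labels, so p-values reflect only the scatter among these samples, which may be technical.

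The proteasome is the main protease of the cytosol and nucleus for proteins tagged with ubiquitin. Its barrel-shaped core holds the proteolytic sites inside rings of beta subunits, and rings of alpha subunits gate the entrance. The base, a ring of ATPases with scaffold proteins, unfolds the substrate, and the lid binds to the base and removes ubiquitin. Activators of other families can cap the core in place of base and lid, and dedicated chaperones assist assembly. When proteasome activity falls, the transcription factor Nrf1 (gene Nfe2l1) is known to raise the subunit genes together. Beta cells make and fold large amounts of proinsulin, and misfolded proinsulin is known to be cleared by the proteasome.

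Total counts per library were 12206393 to 20412435, of which the 47 genes took 30582 to 45399. Neurod1 had 463, 444 and 389 counts in knockout libraries 4, 5 and 6 against 3839, 3614 and 2049 in control libraries 7, 10 and 16 (log2 fold change -2.53, SE 0.13, adjusted p = 1.74e-05 by edgeR's quasi-likelihood test). The islet hormone genes Ins2 and Gcg were abundant in each library, at no less than 105220 and 24602 CPM. Ins1 was at 4307 ± 1529 CPM in knockout libraries against 48668 ± 3300 CPM in controls (log2 fold change -3.50, adjusted p = 1.3e-04). The 10 beta-cell markers, Ins1 among them, summed to 132420 to 149040 CPM against 174710 to 192970 CPM. Of these 10, 3 were called higher (Pdx1, Nkx6-1 and Slc2a2) and 3 lower (Ins1, G6pc2 and Slc30a8). With single libraries left out, 0 to 3 were higher and 3 lower. Markers of other cells differed between the libraries. The 18 acinar markers summed to 4998 to 14592 CPM in knockout libraries and 13837 to 49955 CPM in controls, and 2 of the 18, Ptf1a and Rbpjl, were called lower (13 without control 16, 1 without knockout 4, knockout 6, control 7 or control 10, 15 lower and 1 higher by DESeq2, 6 lower by limma-voom and 14 without robust estimation). Endothelial markers summed to 645 to 756 CPM against 1003 to 1009 CPM, with 9 of 12 called lower. Leukocyte markers summed to 132 to 400 CPM against 122 to 232 CPM, with 1 of 12, Cd14, called lower. Leukocyte calls were 0 without knockout 6, control 10 or control 16, 1 higher and 0 lower without knockout 5, and 2 lower without knockout 4. Alpha-cell markers summed to 26226 to 34911 CPM against 37063 to 50228 CPM, with 1 of 6 called lower. Alpha-cell calls were 0 by limma-voom and without knockout 4, knockout 6, control 7 or control 16. Delta- and PP-cell markers summed to 6690 to 8178 CPM against 7238 to 11189 CPM, with 1 of 4, Hhex, called lower. These calls were 0 by DESeq2 and without knockout 4, knockout 5, control 10 or control 16. Stroma, duct and nerve markers summed to 643 to 809 CPM against 739 to 1036 CPM, with 4 of 12 called lower and 2 higher. With single libraries left out, 0 (without control 10) to 4 (without control 7) were lower and 1 to 2 higher. For all these marker counts the background was 11.8% of all genes tested called higher and 12.6% lower. No acinar, endothelial or leukocyte marker was at 0 in any library. The part of these markers in the results on members was not tested beyond the acinar alternatives. In bulk samples fewer cells of a type and less RNA per cell cannot be told apart.

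Proteasome genes lay slightly higher in the knockout. Of the 45 tested members, 7 rose and 0 fell at an adjusted p under 0.05 (edgeR, Benjamini-Hochberg over all 14770 genes tested). Among all genes tested, 11.8% were called higher and 12.6% lower, so the 15.6% of members called higher stood close to the background, while a lower call was absent. At an unadjusted p under 0.05, 17 of the 45 members were higher and 0 lower. At that limit 2638 of all 14770 genes tested were higher and 2899 lower. These shares are the background for the unadjusted counts of the groups and complexes below. DESeq2 and limma-voom each also called 7 members higher and 0 lower. The log2 fold change was above 0 in 36 members and below 0 in 9, with a median of 0.12 against -0.01 over all genes tested. In 18 members (40% of 45) each knockout library lay above each control library, against 20.0% of all genes. Psmc3ip, no proteasome subunit, is among both the 36 and the 18. In 3 members (6.67%), Psmd4, Psmd6 and Psmg4, each knockout library lay below each control library, against 22.0% of all genes. Changes were small: the fold changes of the 7 called members ran from 16.8% to 41.7% higher. The authors' deposited table calls 4 of the 47 higher, Psmd14, Psme4, Psmd12 and Psma1, and 0 lower, against 6.66% of all its genes called higher.

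**Figure D1:**
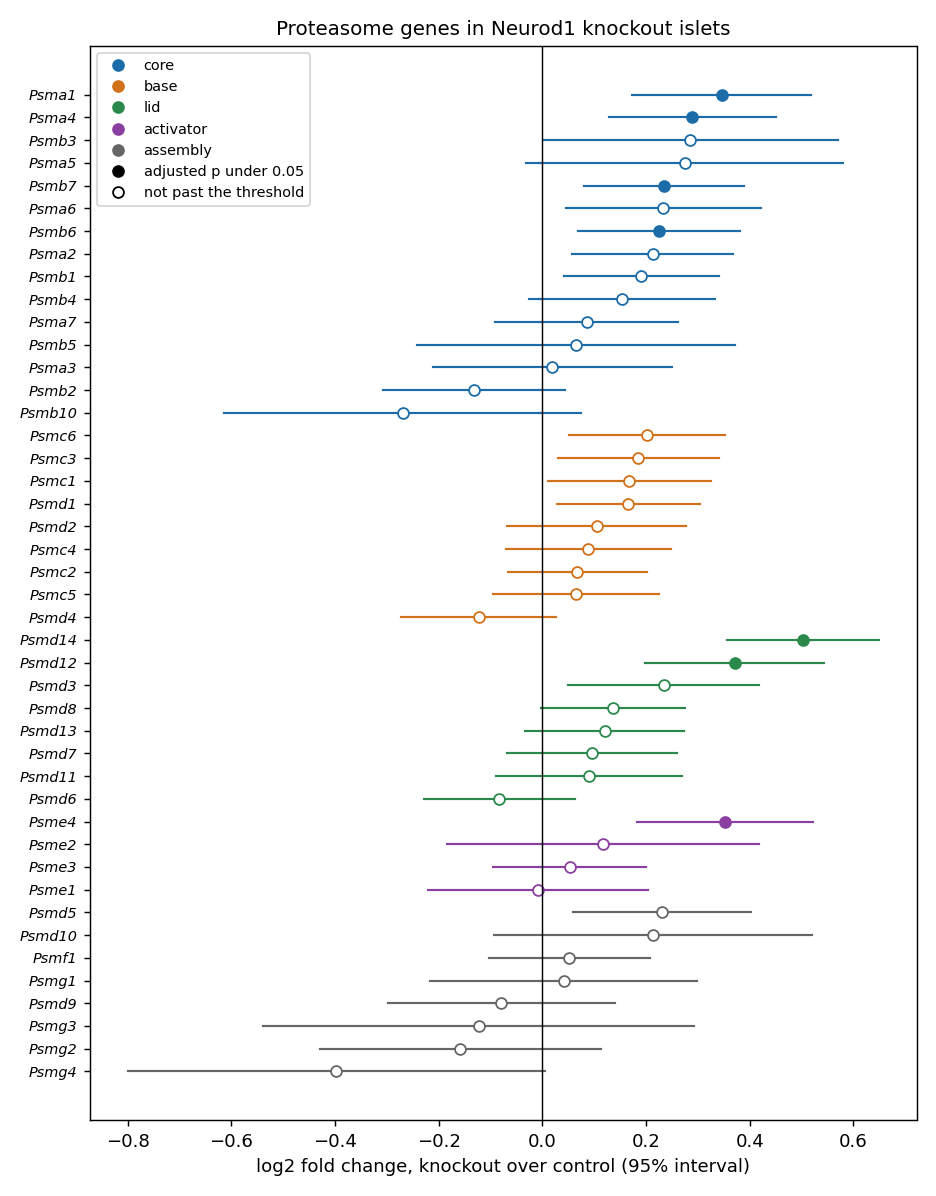
Log2 fold change (knockout over control) with its 95% interval for the tested members other than Psmc3ip, grouped as core, base, lid, activator and assembly (which includes the inhibitor Psmf1); filled points passed an adjusted p of 0.05. Filled points lie between 0.22 and 0.50, and no base or assembly gene is filled.

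The 4 members that kept their call with each library left out in turn were Psmd14 and Psmd12 of the lid, Psma1 of the core and Psme4 of the activators. Their promoters are shown so that the letters of the firmest calls can be compared. Each line is the 250 bases before the RefSeq start, 5′ to 3′ on the gene's strand, in build GRCm38.p6. Capitals mark, on either strand, CGGAAG (the core of an ETS factor site), TGACNNNGC (the core of an antioxidant response element, the kind of site bound by Nrf1 with small Maf proteins) and CCAAT (bound by NF-Y). The intervals are chr2:61711444-61711693 on the plus strand for Psmd14, chr11:107479278-107479527 on the plus strand for Psmd12, chr7:114276117-114276366 on the minus strand for Psma1 and chr11:30771525-30771774 on the plus strand for Psme4.
Psmd14: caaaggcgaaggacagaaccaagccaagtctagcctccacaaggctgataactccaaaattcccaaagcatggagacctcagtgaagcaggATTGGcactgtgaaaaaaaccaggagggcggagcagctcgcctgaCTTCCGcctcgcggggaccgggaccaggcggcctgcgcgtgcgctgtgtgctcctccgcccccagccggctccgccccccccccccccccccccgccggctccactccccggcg
Psmd12: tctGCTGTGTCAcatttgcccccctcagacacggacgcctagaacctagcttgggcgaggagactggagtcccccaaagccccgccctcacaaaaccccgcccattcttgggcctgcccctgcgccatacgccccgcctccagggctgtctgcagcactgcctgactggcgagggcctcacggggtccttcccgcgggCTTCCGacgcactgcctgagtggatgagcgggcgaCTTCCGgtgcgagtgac
Psma1: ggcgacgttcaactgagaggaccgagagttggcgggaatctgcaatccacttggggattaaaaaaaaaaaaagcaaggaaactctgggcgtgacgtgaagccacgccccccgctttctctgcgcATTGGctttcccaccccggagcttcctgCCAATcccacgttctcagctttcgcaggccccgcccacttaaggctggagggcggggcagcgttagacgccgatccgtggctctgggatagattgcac
Psme4: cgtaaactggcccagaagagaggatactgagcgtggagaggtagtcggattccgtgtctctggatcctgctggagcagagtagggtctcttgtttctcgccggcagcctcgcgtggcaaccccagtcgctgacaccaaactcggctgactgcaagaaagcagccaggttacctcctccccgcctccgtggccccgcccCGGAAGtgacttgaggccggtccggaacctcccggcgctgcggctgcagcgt

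These 4 sequences hold different matches. Psmd14 has an ETS core 114 bases and a CCAAT 159 bases upstream of the start. Psmd12 has ETS cores at 52 and 17 bases and the antioxidant core at 247 bases, and Psme4 has an ETS core at 52 bases. Psma1 has CCAAT at 126 and 98 bases on opposite strands and no CGGAAG in these letters. Over the 300-base windows that RefSeq gives (250 before to 50 after the start), 39 of the 47 members had a window. CGGAAG was found in 23 of these 39 (59.0%), against 31.8% of the 10444 tested genes with a window and 18.8% of all 27025 genes. It was present in 6 of 6 lid and 7 of 8 base genes, 5 of 13 core genes, 2 of 4 activators and 2 of 7 assembly genes. The overlapping letters GGAAGT were in 20 of 39 members (51.3%) and 30.7% of tested genes. The antioxidant core was in 6 of 39 (15.4%) and 17.0% of tested genes, and CCAAT in 14 of 39 (35.9%) and 42.4%. The E-box letters CATCTG, of the kind bound by basic helix-loop-helix factors such as Neurod1, were in 7 of 39 (17.9%) and 14.2%, and CACGTG in 4 of 39 (10.3%) and 11.4%. A match is a description of the letters and not of binding. Among the 6 called members with a window, CGGAAG was in 4, Psma4, Psmd14, Psmd12 and Psme4. The antioxidant core was in 3 of the 6, Psmb6, Psmd12 and Psme4, and that of Psme4 is not within its printed 250 bases. GGAAGT was in 5 of the 6, CCAAT in 2, CACGTG in 1 and CATCTG in 0.

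In the core particle, 4 of the 15 tested genes rose (26.7%, against 11.8% of all genes tested) and 0 fell (against 12.6%). The share called higher was 25% in the lid (2 of 8) and in the activators (1 of 4). Of the 15 core genes, 8 had an unadjusted p under 0.05, and 13 had a log2 fold change above 0 (median 0.21). Psma1, an alpha-ring subunit, had 100.6, 94.3 and 84.4 CPM in knockout libraries 4, 5 and 6, against 71.6, 73.7 and 74.6 CPM in control libraries 7, 10 and 16. The lowest knockout library lay above the highest control, and the log2 fold change was 0.35 (SE 0.08, adjusted p = 0.0119). Psma4, also of the alpha ring, had 37.5, 40.6 and 39.7 CPM against 33.2, 32.0 and 31.1 CPM, again without overlap (0.29, SE 0.07, adjusted p = 0.0188). Psmb7 encodes the beta subunit with trypsin-like activity. It had 56.7, 59.3 and 57.4 CPM against 47.4, 47.8 and 52.3 CPM, with control 16 nearest to the knockout (0.23, SE 0.07, adjusted p = 0.0352). Psmb6, the subunit with caspase-like activity, had 70.7, 64.5 and 68.1 CPM against 57.3, 55.7 and 61.1 CPM, and control 16 was again the highest control (0.22, SE 0.07, adjusted p = 0.0442).

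These 4 core calls were not equally firm. Psma1 was called with each library left out. Psma4 lost its call without knockout 5, control 10 or control 16 (adjusted p up to 0.0681). Psmb7 and Psmb6 lost theirs without any one of knockout 4, knockout 5, knockout 6, control 7 or control 10, with adjusted p up to 0.119 and 0.147. Transcripts of Psmb7 share 28.1% of their 50-base stretches with transcripts of the gene Nek6, which itself was higher (log2 fold change 0.86, adjusted p = 0.0057), and Psma4 shares 31.5% with AY074887 and Gm6542. Counts of such genes are uncertain, since the sources used here do not say how shared reads or strands were counted.

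**Figure D2:**
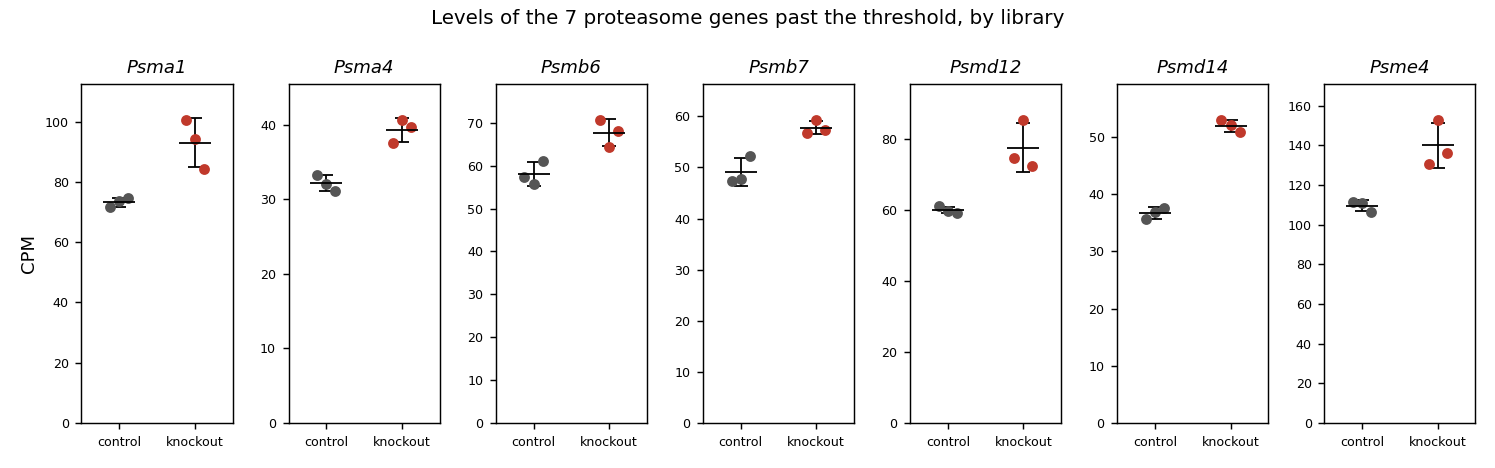
CPM of the 7 members past the threshold in each of the 3 control and 3 knockout libraries; horizontal lines are means and bars are 1 SD (n = 3), each panel starting at 0 on its own scale. In all 7 panels the lowest knockout point lies above the highest control point, as in Psmd14 (50.9 against 37.7 CPM) and Psme4 (131 against 112 CPM).

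The other core genes did not pass. Psma2 (0.21, adjusted p = 0.0513), Psmb1 (0.19, adjusted p = 0.0668) and Psma6 (0.23, adjusted p = 0.0725) had each knockout library above each control library. Psmb3, Psma5, Psmb4, Psma7, Psmb5 and Psma3 had log2 fold changes of 0.29, 0.28, 0.15, 0.09, 0.06 and 0.02 with overlapping groups. Psmb5 encodes the subunit with chymotrypsin-like activity, so of the 3 constitutive catalytic beta genes Psmb6 and Psmb7 were called and Psmb5 was not. The Psmb5 interval was -0.24 to 0.37, which holds the estimates of both, and the difference between the 3 genes was not tested. Below 0 were Psmb2 (-0.13, 95% interval -0.31 to 0.04) and Psmb10, the inducible counterpart of Psmb7 in the immunoproteasome (-0.27, 95% interval -0.61 to 0.08). Psmb10 had 13.4, 14.0 and 19.0 CPM in the knockout against 18.4, 20.7 and 16.5 CPM in the control. The groups overlapped: knockout 6, the library with the highest leukocyte sum (400 CPM), was also the highest knockout library for Psmb10, while knockout 4, with the next highest sum (304 CPM), was the lowest of all 6 libraries. The part of leukocyte RNA in this gene's counts was not tested.

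The base had 0 calls among 9 genes in either direction by edgeR, DESeq2 or limma-voom, with 4 genes higher and 0 lower at an unadjusted p under 0.05. By edgeR 11.8% of all genes tested were called higher and 12.6% lower. Among 9 genes, 0 calls is not far from these shares, and a difference from core or lid was not tested. Even so, 8 of the 9 had a log2 fold change above 0 (median 0.10), and all 6 ATPase genes did, from 0.07 in Psmc5 to 0.20 in Psmc6. Psmc6 had 75.7, 71.0 and 71.4 CPM in knockout libraries against 65.1, 59.8 and 64.8 CPM in controls. These groups did not overlap, and the adjusted p was 0.0558 (95% interval 0.05 to 0.35). Psmc3, Psmc1 and the scaffold gene Psmd1 also did not overlap (0.19, 0.17 and 0.17, adjusted p = 0.0808, 0.111 and 0.0793). Psmd2, the other large scaffold, had 177, 176 and 157 CPM against 166, 150 and 160 CPM, with overlap (0.10, 95% interval -0.07 to 0.28). The intervals of Psmc2 (-0.07 to 0.20), Psmc4 (-0.07 to 0.25) and Psmc5 (-0.10 to 0.23) also held 0. The ubiquitin receptor gene Psmd4 went the other way, with 54.5, 53.4 and 51.1 CPM against 55.7, 57.2 and 60.3 CPM. Its groups did not overlap, and it did not pass (-0.12, 95% interval -0.27 to 0.03, adjusted p = 0.208).

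The lid held the largest change. Psmd14, the deubiquitinase that removes ubiquitin chains from the substrate, had 53.0, 52.1 and 50.9 CPM in knockout libraries 4, 5 and 6 and 35.6, 36.8 and 37.7 CPM in control libraries 7, 10 and 16. Both groups were tight, at 52.0 ± 1.03 and 36.7 ± 1.02 CPM (SD, n = 3 each). Psmd14 was 41.7% higher, a log2 fold change of 0.50 (SE 0.06, adjusted p = 0.001). Psmd12, a scaffold subunit of the lid, had 74.6, 85.2 and 72.4 CPM against 60.9, 59.5 and 59.1 CPM. Knockout 5 was highest, and the controls lay within 2 CPM of each other (0.37, SE 0.08, adjusted p = 0.0089). Both were called with each library left out (adjusted p up to 0.0065 and 0.037).

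The 6 other lid genes did not pass. Psmd3 had 109, 124 and 108 CPM against 91.1, 94.9 and 104 CPM (0.23, adjusted p = 0.0668), and Psmd8 was 0.14 (adjusted p = 0.14). In both, each knockout library exceeded each control library. Psmd13, Psmd7 and Psmd11 were 0.12, 0.10 and 0.09, with overlap. Psmd6 had 70.6, 70.9 and 64.9 CPM against 71.6, 74.6 and 72.5 CPM, so each knockout library was lower (-0.08, 95% interval -0.23 to 0.06). Psmd7, which forms a heterodimer with Psmd14 and lacks its enzyme activity, had an interval of -0.07 to 0.26, below the Psmd14 interval of 0.36 to 0.65.

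Among the activators, Psme4 alone rose. It encodes a large single-chain cap of the core that needs no ATP, known for a part in the handling of acetylated histones. It had 131, 153 and 136 CPM against 112, 111 and 106 CPM, without overlap (0.35, SE 0.07, adjusted p = 0.0102), and was called with each library left out. The genes of the interferon-inducible cap, Psme1 and Psme2, were at -0.01 (95% interval -0.22 to 0.20) and 0.12 (95% interval -0.18 to 0.42). The nuclear cap gene Psme3 was at 0.05 (95% interval -0.09 to 0.20). Psme1 had 37.2, 36.9 and 44.3 CPM against 38.5, 42.5 and 37.9 CPM, and its groups overlapped, as did those of Psme2 and Psme3. The 16 interferon-response genes listed beside them had 1 call, a higher one (6.25%, below the 11.8% of all genes tested). It was Usp18 (0.83, adjusted p = 0.0113, and 0.342 with the acinar covariate). The 16 genes summed to 309 to 390 CPM against 260 to 385 CPM.

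Assembly genes showed no shared direction. Of 8 genes 0 were called by edgeR, DESeq2 or limma-voom, where edgeR called 11.8% of all genes tested higher and 12.6% lower. At an unadjusted p under 0.05, 1 was higher and 0 were lower, and 4 lay on each side of 0 (median -0.02). Psmd5, a chaperone of the base, had 45.9, 43.0 and 42.2 CPM against 39.5, 37.2 and 35.1 CPM, without overlap (0.23, adjusted p = 0.055). Its fellow base chaperones Psmd10 and Psmd9 were at 0.21 and -0.08. Of the 4 core chaperones, Psmg4 had 5.10, 4.42 and 4.42 CPM against 5.99, 5.44 and 7.0 CPM, each knockout library being lower (-0.40, 95% interval -0.80 to 0.01, adjusted p = 0.138). Psmg2, Psmg3 and Psmg1 were at -0.16, -0.12 and 0.04 with overlap. Psmf1, an inhibitor of the core, had 49.1, 47.4 and 45.7 CPM against 48.0, 44.4 and 44.7 CPM (0.05, 95% interval -0.10 to 0.21). Psmc3ip had 2.21, 2.55 and 2.81 CPM against 2.01, 2.06 and 1.92 CPM, and did not pass (0.33, 95% interval -0.22 to 0.88).

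Summed over the genes of a group, core, base, lid and activators each had all knockout libraries above all controls. The core sum was 767 ± 21.7 CPM in knockout libraries against 680 ± 33.1 CPM in controls (SD, n = 3 each), 12.8% higher. The lid sum was 539 ± 23.4 against 477 ± 8.54 CPM (13.2% higher), the base sum 761 ± 21.2 against 707 ± 10.7 CPM (7.70% higher) and the activator sum 279 ± 8.01 against 245 ± 4.52 CPM (14.0% higher). The assembly sum, 165 ± 3.74 against 159 ± 6.08 CPM, overlapped. These sums are given without a test, since they are scores over chosen genes, and abundant genes weigh most in them. The activator difference lay mostly in Psme4, with means of 140 against 110 CPM. Means of Psme3, Psme1 and Psme2 were 86.3 against 83.1, 39.5 against 39.6 and 13.6 against 12.5 CPM, each with overlap.

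Control 16 had the highest core, base and lid sums of the controls, at 718, 717 and 486 CPM, and the lowest acinar share, at 1.40% of counts against 4.93% and 4.17% in controls 7 and 10. Its activator sum, 240.2 CPM, was the lowest of the controls. Knockout libraries had acinar shares of 0.494%, 1.45% and 1.08%. Knockout 5 had an acinar share close to that of control 16, and its core, base and lid sums were 759, 764 and 563 CPM. This sets 1 library beside 1 other, and the part of the acinar share in the sums was not tested. With the acinar level added to the model as a covariate, a level that itself differs between the genotypes, 1 member was called, Psme4 (0.52, adjusted p = 0.0421). Psmd14 was then at 0.43 (adjusted p = 0.0683), Psmd12 at 0.48 (adjusted p = 0.0764) and Psma1 at 0.21 (adjusted p = 0.383). Calls fell over all genes too, from 1736 to 639 higher and from 1864 to 470 lower with this covariate. That general loss is the background for each call of a member or listed gene lost with the acinar covariate. With the acinar markers, both insulin genes and the ribosomal RNA precursor Rn45s taken out of the counts and TMM scaling kept, 7 members were called higher. With library totals alone in that reduced table, the median of all genes moved to -0.10, the members' median to 0.02, with 26 above and 19 below 0, and the members called were 4 higher and 1 lower, Psmd4.

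**Figure D3:**
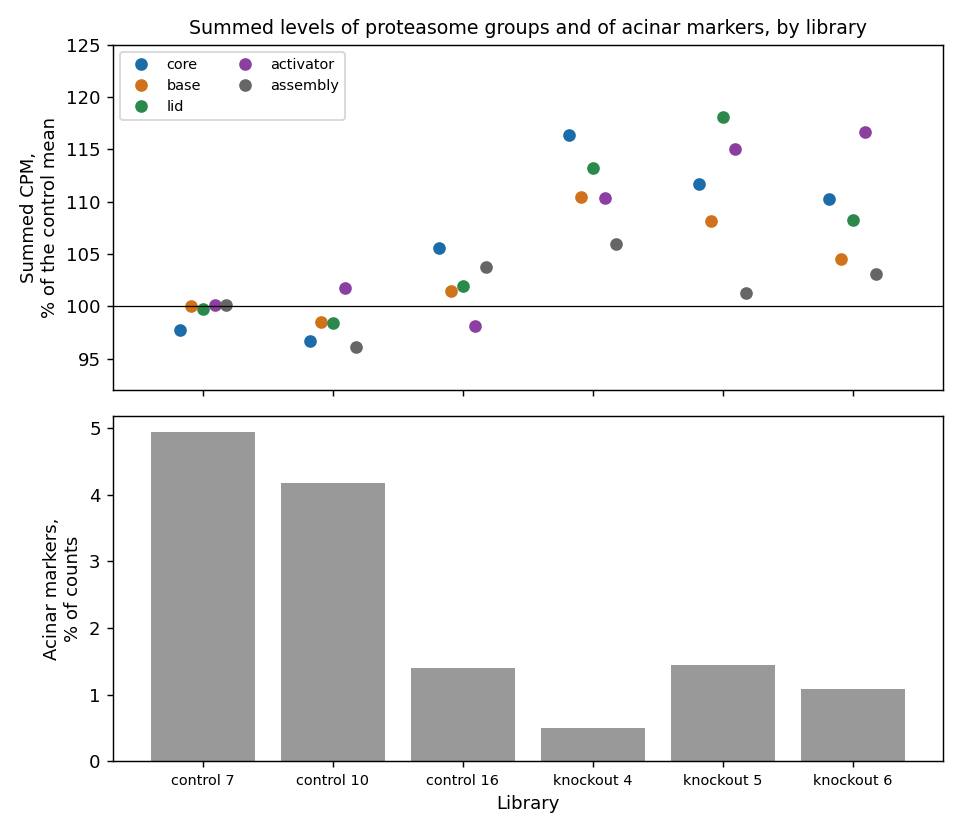
Top: summed CPM of core, base, lid, activator and assembly genes in each library as percent of the control mean (the axis does not start at 0); bottom: acinar markers as percent of counts. Core, base, lid and activator points of the knockout libraries lie above all control points of the same group, and control 16 combines the lowest acinar share of the controls, 1.40%, with the highest core point.

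Differences between the mean levels of the groups were compared for each pair, and most pairs overlapped between knockout and control. The scale was the mean of log2 CPM with a prior count of 2 added before the log. There the base exceeded the lid by 0.32, 0.25 and 0.32 in knockout libraries 4, 5 and 6. In control libraries 7, 10 and 16 it did so by 0.36, 0.39 and 0.38. That difference did not overlap between groups. Without Psmd12 and Psmd14 it was 0.31, 0.25 and 0.31 against 0.26, 0.31 and 0.28, with overlap. Both genes were left out after their values were seen. Core minus base was -1.01, -0.995 and -0.96 in knockout libraries against -1.05, -1.07 and -0.98 in controls, with overlap. The assembly genes lay further below core and lid in the knockout, without overlap. Core minus assembly was 1.31, 1.35 and 1.29 against 1.15, 1.18 and 1.10, and lid minus assembly 1.99, 2.09 and 1.93 against 1.84, 1.86 and 1.70. The remaining pairs overlapped: core minus lid, core minus activator, base minus activator, base minus assembly, lid minus activator and activator minus assembly. All these differences are given without a test.

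Levels per length differed more between subunits than between genotypes. Per kb of transcript (GENCODE principal transcripts), control levels of the 9 base genes ran from 28.3 to 53.9 CPM per kb, a 1.90-fold range, with a median of 40.2. The 8 lid genes ran from 12.4 (Psmd11) to 52.6 (Psmd6) with a median of 34.7, and the 15 tested core genes from 6.93 (Psma3) to 78.8 (Psmb4), an 11.4-fold range with a median of 42.4. Assembly genes had a median of 10.7 CPM per kb and activators 24.0. Per kb of coding sequence the ranges were 1.79-fold in the base, 2.25-fold in the lid and 9.34-fold in the core. In the 3 core genes whose transcripts share at least 50% of their 50-base stretches with other genes, Psma5, Psmb3 and Psmb5, control levels were 7.38, 15.9 and 13.2 CPM per kb. Their median of 13.2 stood against 40.2 in the other 29 tested core, base and lid genes. Psme2 shares 59.3%, with Psme2b and Gm7928, and was at 13.0 CPM per kb. For Psma1, Psmd12 and Psme4 the share was 0% and for Psmd14 1.61%. The part of shared reads in any call or level was not tested.

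**Figure D4:**
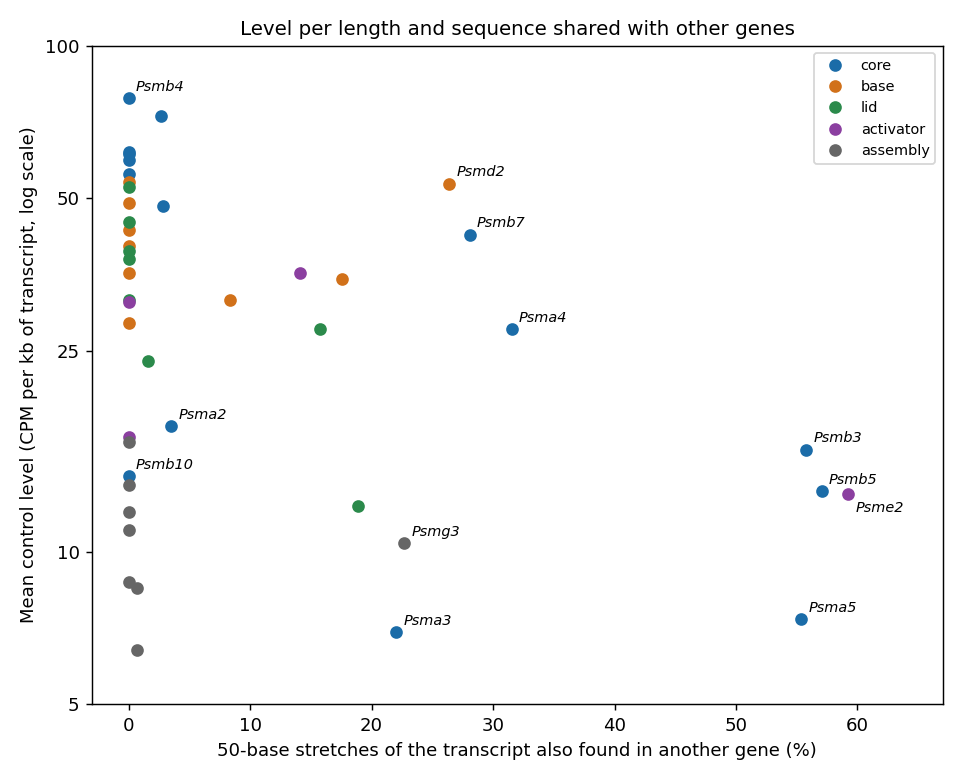
Mean control level (CPM per kb of transcript, log axis) of each tested member other than Psmc3ip against the percent of its 50-base stretches also present in another gene. Psma5, Psmb3, Psmb5 and Psme2, at over 50% shared, lie between 7.38 and 15.9 CPM per kb, and genes at 0% run from 8.73 to 78.8 CPM per kb.

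Genes that work with the proteasome were read from lists. Of 18 tested partners, 5 rose (27.8%, against 11.8% of all genes tested) and 0 fell (against 12.6%). The largest changes were in ubiquitin ligases. Ubr4, a ligase of the N-degron pathway, had 1133, 1568 and 1035 CPM against 419, 532 and 590 CPM (1.28, adjusted p = 0.0028). Ube3c, a ligase bound to the proteasome, had 260, 339 and 241 CPM against 139, 122 and 120 CPM (1.14, adjusted p = 7.8e-04), and Ube3a was at 0.61 (adjusted p = 0.0027). All 3 were without overlap and called with each library left out. With the acinar covariate Ube3c and Ube3a were the partners still called, and Ubr4 was not (adjusted p = 0.107). Txnl1, a thioredoxin-like protein of the regulatory particle, rose by 0.39 (adjusted p = 0.0164, lost without control 7 or control 10). The core chaperone gene Pomp (0.15, adjusted p = 0.161), the ubiquitin receptor gene Adrm1 (-0.21, adjusted p = 0.326), the deubiquitinase gene Usp14 (0.03, adjusted p = 0.859) and the small lid subunit gene Shfm1 (0.12, adjusted p = 0.276) did not pass.

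Regulators of subunit genes went both ways. Of the 13 genes listed for Nrf1 and its control, 3 rose (23.1%) and 2 fell, against 11.8% and 12.6% of all genes tested. Nfe2l1, which encodes Nrf1, had 403, 400 and 370 CPM against 365, 320 and 333 CPM. Each knockout library was higher, and the gene did not pass (0.20, adjusted p = 0.104). The related factor Nfe2l2 (0.29, adjusted p = 0.0218) and Ngly1, the glycanase that processes Nrf1 (0.29, adjusted p = 0.0202), rose. Nfe2l2 lost its call without knockout 5 or any 1 control library, and Ngly1 without knockout 4, control 10 or control 16. Stat3 rose by 0.31 (adjusted p = 0.0178, lost without control 7 or control 10). The small Maf gene Maff fell by 0.87 on the log2 scale (adjusted p = 0.0138), and was called with each library left out. With the acinar covariate 0 of the 13 were higher and 1 lower, Maff, and with the reduced counts on library totals alone 0 were higher and 3 lower.

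The unfoldase Vcp and its cofactors hand ubiquitin-tagged proteins to the proteasome. Of these 10 genes, 0 were lower and 3 higher (30%, against 11.8% of all genes tested). These were Vcp (0.39, adjusted p = 0.0128), Ufd1l (0.30, adjusted p = 0.0149) and Faf2 (0.29, adjusted p = 0.0254). Vcp and Ufd1l lost their calls without control 10, and Faf2 without knockout 5, control 10 or control 16. None of the 3 was called with the acinar covariate (adjusted p = 0.451, 0.415 and 0.0833), and 1, Vcp, with the reduced counts on library totals alone. Of 12 genes of ubiquitin and its activating enzymes, 1 rose (8.33%, below the 11.8% of all genes tested). It was Sae1 of the SUMO pathway (0.30, adjusted p = 0.0497), whose call was lost without knockout 4, knockout 5, control 7 or control 10. It was also lost with limma-voom, upper-quartile factors, no robust estimation, the acinar covariate and the reduced counts on library totals alone.

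Other complexes of like size were set beside the proteasome. The COP9 signalosome, related in structure to the lid, had 2 of 9 genes higher (22.2%, against 11.8% of all genes tested). These were Cops6 (0.48, adjusted p = 0.0056) and Cops2 (0.36, adjusted p = 0.0049). Both were called with each library left out and neither with the acinar covariate (adjusted p = 0.12 and 0.117). Translation factor eIF3, also related to the lid, had 0 of 12 genes called in either direction, with 2 at an unadjusted p under 0.05 (median 0.05). The chaperonin CCT had 0 of 8 called, with 1 at an unadjusted p under 0.05 (median 0.05). DESeq2 and limma-voom also called 0 in both. The shares of all genes tested were 11.8% higher and 12.6% lower by edgeR, so few calls would be looked for in lists this short. Their most abundant genes, Eif3a and Cct7, were at 0.11 (adjusted p = 0.285) and 0.12 (adjusted p = 0.305). Whether the proteasome's count differed from those of these complexes was not tested.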

How the data were processed

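RNA-seq of isolated islets was analysed in 6 libraries, grouped by the labels' titles into knockout (replicates 4, 5 and 6) and control (7, 10 and 16). For each library the authors deposited counts of reads per gene as whole numbers. Build mm9 and the tools TopHat2 2.1.0, Cufflinks 2.0.2, DESeq (no version) and bcl2fastq 1.8.4 are listed in the submitters' processing notes. Counter, annotation and strand setting were not given in the sources used here. The authors' deposited table of their comparison holds mean scaled counts per group (a signal), a ratio (fold change), its log2 value, p-values and adjusted p-values, and was copied and not refitted.

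Counts were fitted in R 4.3.3 with edgeR 4.0.16 (filterByExpr with a minimum count of 10 and minimum total of 15, TMM factors, robust quasi-likelihood F test, Benjamini-Hochberg over 14770 genes, threshold 0.05). The fit was tested on simulated data. Intervals are 95% intervals of the log2 fold change, and CPM is per 1e+06 counts. The common biological coefficient of variation was 14.2%. Chi-square over degrees of freedom was 15.9 to 41.5 between replicate libraries, beyond sampling noise, so each was counted once. Alternatives used DESeq2 1.42.0, limma-voom (limma 3.58.1), other scaling factors, no filter, no robust estimation, an acinar covariate and each library left out. Removal of acinar, insulin and Rn45s counts was added after seeing the data.

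The members and lists were chosen with earlier results of these data known. Named were all members, with values per library for up to 4 called or most abundant genes per group and the largest change, and of each list up to 4 called genes with the smallest p. Values per library of Psmb10, Psmd4, Psmg4, Psmc3ip and Nfe2l1 and of other members and uncalled partners named beyond that rule, the 6 motifs, the 50-base measure with its 50% limit and the 4 promoters were chosen after values were seen. Transcript lengths and 50-base stretches come from GENCODE on GRCm38, promoters from RefSeq on GRCm38.p6. Neither is the build of the counts, so they were joined by symbol.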

Additional observations from a re-analysis of the deposited data

How the results depend on the processing

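No paired analysis was possible because the groups share no replicate numbers. No called member changed sign under the 16 alternatives. With the acinar covariate, genes called were 639 higher and 470 lower in all, members 1 higher, core 0 and lid 0, and the core median was 0.059. Without the low-count filter, 13 members were called higher (core 7, base 1, assembly 1). All genes called higher were then 1999 of 19440 tested, against 1736 of 14770 in the main fit. Upper-quartile factors gave 2 core calls (1570 of all genes higher). RLE factors gave 1 base and 1 assembly call (1817 of all genes higher), and library totals 1 assembly call (1766 of all genes higher). With acinar, insulin and Rn45s counts removed and library totals only, 4 members were higher and 1 lower (core 1 higher, base 1 lower). All genes called there were 1214 higher and 2731 lower. The medians were 0.12 in the core, 0.0089 in the base and 0.033 in the lid, while the activator median turned from 0.085 to -0.0084. The median of all genes was also lower there, at -0.10. The members' median stood 0.126 above it, against 0.127 in the main fit. With single libraries left out, 1153 to 1590 genes were higher and 1225 to 1433 lower, 4 to 7 members were higher (4 without knockout 5 or control 10), core calls ran from 1 to 4 and the base median from 0.080 to 0.17. Causes were not tested. Lid calls stayed at 2 and activator calls at 1 with each library left out. The number of libraries, 3 per group, limits the precision of changes as small as these.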

Other observations

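Heat-shock genes, which handle misfolded proteins upstream of the proteasome, went both ways. Of 14 tested, 3 rose (21.4%) and 1 fell, against 11.8% and 12.6% of all genes tested. The chaperone gene Hspa8 had 320, 256 and 218 CPM in knockout libraries 4, 5 and 6 and 138, 138 and 152 CPM in control libraries 7, 10 and 16, without overlap (log2 fold change 0.90, adjusted p = 0.0025 by edgeR). Hsf1, the transcription factor of the heat-shock response, had 50.4, 43.4 and 45.4 CPM against 58.8, 56.5 and 62.2 CPM and was lower (-0.35, adjusted p = 0.0126). Both were called with each library left out. With the acinar covariate, 0 heat-shock genes were higher and Hspa8 lost its call (0.50, adjusted p = 0.152), while Hsf1 was still called (adjusted p = 0.0308). Hspa4 (0.36, adjusted p = 0.0196) lost its call without knockout 4, knockout 5, control 7 or control 10, and Hsph1 (0.56, adjusted p = 0.0343) without knockout 5 or any 1 control library.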
